A study of Mus musculus with 6 samples.

Results

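The ATF4 and amino acid response genes described here are a list of 38 genes, taken from the 54446 genes in the deposited table. The list was written by name from general knowledge of the pathway, with earlier results of these data known. The list holds 8 transcription factors and their partners, 3 genes for kinases or a phosphatase subunit of the translation factor eIF2α, 5 genes of serine and one-carbon synthesis, 7 of other amino acid synthesis, 9 amino acid transporters, and 6 growth and secreted effectors. All 38 passed the low-count filter, which asked for 10 counts or more in at least 2 libraries, as did 14956 genes in all.

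When amino acids run short or unfolded protein accumulates, kinases phosphorylate eIF2α. Most translation then slows while the mRNA of the transcription factor ATF4 is translated more, so ATF4 is set to a large part by translation, which mRNA counts do not measure. ATF4 pairs with C/EBP family and other bZIP proteins at C/EBP-ATF elements near genes for amino acid synthesis, uptake and tRNA charging, and in tumour cells this program supplies serine, asparagine, proline and cystine for growth.

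Poly(A) RNA was sequenced from TRAMP-C2 cells, an established prostate cancer line from a male C57BL/6 mouse of the TRAMP model, in which a viral oncogene is driven in the prostate. Of 6 libraries, 2 came from cells with no drug (control), 2 from cells given 2 µM oxaliplatin for 24 h and 2 from cells given 2 µM cisplatin for 24 h. The medium listed for the line, common to all groups, held serum, added L-glutamine, bovine insulin and a steroid. The study asked how platinum drugs alter antigen presentation by tumour cells, and these libraries allow each drug to be set against control and the drugs against each other. Both drugs are platinum compounds that crosslink DNA. Oxaliplatin carries a diaminocyclohexane ligand and an oxalate leaving group, whereas cisplatin carries ammine ligands and chloride leaving groups.

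Library totals were 21345312 to 24041767 counts, so that 3 counts, taken here as the detection floor, came to 0.125 to 0.141 CPM (counts relative to the library total). Replicates of a group differed by more than sampling noise. The labels do not say whether the replicates were separate cultures, so p-values measure only the spread between these libraries. Of 11 prostate or other epithelial markers, 6 reached 1 CPM in some library. *Krt5* and *Pbsn*, a prostate secretory gene, were at 0 in every library, and *Epcam* reached at most 0.0893 CPM, whereas *Krt19* was at 87.5 to 113 CPM and *Cdh1* at 16.6 to 25 CPM. All 6 mesenchymal markers were abundant. Their summed level was 18248 to 18805 CPM in control, 16101 to 16508 after oxaliplatin and 14771 to 15256 after cisplatin. The markers did not move together. *Col1a1* and *Col1a2* were below control after both drugs, and *Fn1* and *Acta2* after cisplatin. *Acta2* was above control after oxaliplatin and *Cdh2* stayed at 307 to 323 CPM. *Vim* was at 2396 to 2614 CPM in control, 2688 to 2703 after oxaliplatin and 2896 to 2971 after cisplatin. Leukocyte and endothelial marker sums stayed at or below 3.14 CPM. The part of these marker shifts in the results was not tested, and in bulk samples fewer cells of a type and less RNA per cell cannot be told apart.

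C/EBP-ATF elements were looked for first, because they are the sequence through which ATF4 is known to act. RefSeq promoter windows (GRCm38.p6, 250 bases before to 50 after the start of each transcript) were given for 33 of the 38 members, and not for *Cth*, *Slc7a3*, *Slc7a5*, *Slc1a5* and *Eif4ebp1*. The letters TGATGNAA, or TTNCATCA for the other strand, were in a window of 11 of the 33 members (33.3%) and of 1219 of 27025 genes with a window (4.51%). Counted by windows, 26.2% of 42 member windows and 3.97% of all windows held the letters. The 11 members were *Asns*, *Nupr1*, *Slc7a11*, *Got1*, *Pycr1*, *Trib3*, *Slc1a4*, *Jdp2*, *Chac1*, *Vldlr* and *Fgf21*. Because the list was drawn up largely from known ATF4 targets, this share is a description of the list. Of 27 members with a window that differed from control after at least 1 drug, 10 held the letters (37%). The 6 of these with the smallest adjusted p are given here, 5′ to 3′ on the strand of the gene, with each match in capitals. For the first 5 the 250 bases before the start are given, and for *Trib3*, whose match begins at base 15 of the transcript, the first 30 transcribed bases.
Asns (chr6:7693210-7693459, minus strand): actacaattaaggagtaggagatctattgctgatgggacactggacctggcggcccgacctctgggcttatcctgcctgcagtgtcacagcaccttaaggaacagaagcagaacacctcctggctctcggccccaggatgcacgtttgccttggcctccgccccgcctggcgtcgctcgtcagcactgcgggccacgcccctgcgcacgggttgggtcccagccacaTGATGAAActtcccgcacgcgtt
Nupr1 (chr7:126625471-126625720, minus strand): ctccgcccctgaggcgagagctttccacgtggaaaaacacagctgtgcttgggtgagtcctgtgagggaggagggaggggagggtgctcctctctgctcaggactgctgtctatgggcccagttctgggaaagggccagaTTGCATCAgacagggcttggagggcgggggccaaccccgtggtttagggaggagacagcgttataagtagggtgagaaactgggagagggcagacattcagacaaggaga
Slc7a11 (chr3:50443614-50443863, minus strand): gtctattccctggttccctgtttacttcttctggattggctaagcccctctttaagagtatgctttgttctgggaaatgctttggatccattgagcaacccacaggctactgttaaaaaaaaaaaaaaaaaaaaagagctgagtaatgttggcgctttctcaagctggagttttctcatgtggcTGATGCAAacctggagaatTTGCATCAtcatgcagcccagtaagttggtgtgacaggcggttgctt
Got1 (chr19:43524606-43524855, minus strand): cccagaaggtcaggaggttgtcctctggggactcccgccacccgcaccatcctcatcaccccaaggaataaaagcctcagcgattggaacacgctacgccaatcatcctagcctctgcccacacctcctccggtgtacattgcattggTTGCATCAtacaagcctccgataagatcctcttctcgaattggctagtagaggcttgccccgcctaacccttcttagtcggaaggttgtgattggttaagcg
Pycr1 (chr11:120643749-120643998, minus strand): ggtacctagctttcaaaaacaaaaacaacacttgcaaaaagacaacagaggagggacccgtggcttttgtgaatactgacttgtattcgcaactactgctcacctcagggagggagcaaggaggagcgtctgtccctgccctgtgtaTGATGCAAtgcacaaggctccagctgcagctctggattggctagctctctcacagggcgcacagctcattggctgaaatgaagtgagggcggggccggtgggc
Trib3 (chr2:152344031-152344060, minus strand): agattagctcaggtTTACATCAgccgggcg
The match of *Asns* began 23 bases before the start, that of *Nupr1* 110, that of *Got1* 102 and that of *Pycr1* 103 bases before it. *Slc7a11* held 2 matches, 66 and 47 bases before its start and on opposite strands. A match is a description of letters, not of a bound site, and the absence of one in the other windows says only that these letters were not found there.

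**Figure D1:**
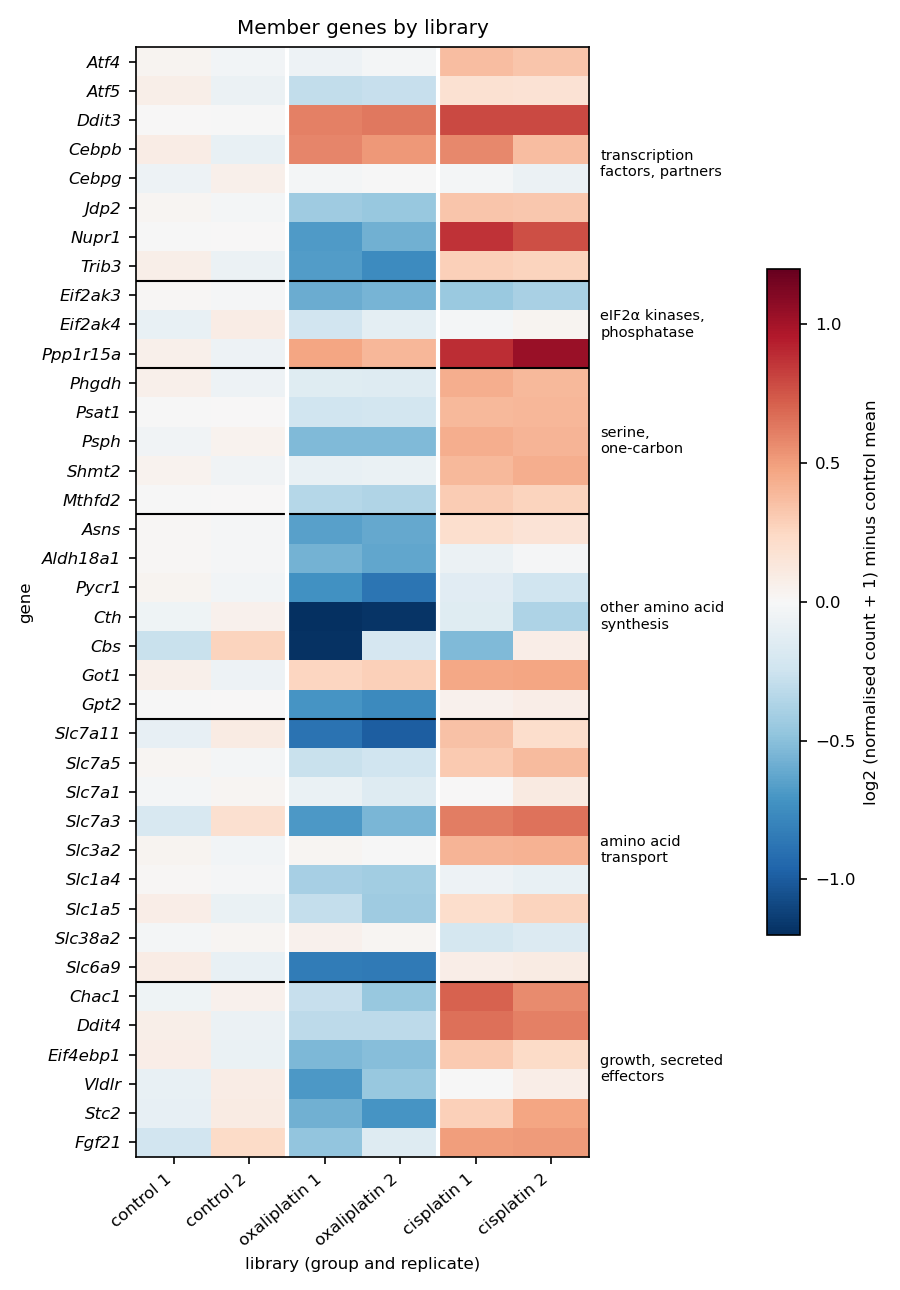
Each row is a member and each column a library. Colour gives log2 (normalised count + 1) minus the mean of the 2 control libraries, with red above and blue below control, and colours are saturated beyond 1.2 in either direction. Most rows are blue in both oxaliplatin libraries and red in both cisplatin libraries, while *Ddit3*, *Cebpb*, *Ppp1r15a* and *Got1* are red in all 4.

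After 2 µM oxaliplatin, most of the amino acid response genes were lower than in control. Of the 38, 23 fell and 4 rose, 9 did not pass the threshold, and *Cbs* and *Fgf21* had too few counts for an adjusted p. The 4 that rose were *Ddit3*, *Cebpb*, *Ppp1r15a* and *Got1*. A gene was called when the adjusted p of DESeq2's two-sided Wald test, with Benjamini-Hochberg adjustment over all genes tested, was under 0.05. By this rule 10.7% of all genes tested were called higher and 9.5% lower. Of the 34 members with a mean of at least 100 normalised counts (counts divided by the library's size factor), 4 were higher and 23 lower, where 14.8% and 13% of genes at that level were. The median log2 fold change was -0.36 over the members and -0.0029 over all genes tested. With a fold change of at least 1.5 asked for as well, 1 member was higher and 9 were lower, beside 1.42% and 1.54% of all genes.

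After 2 µM cisplatin the direction was mainly the other way. Of the 38 members 21 rose, and *Eif2ak3* and *Slc38a2* fell. A further 14 did not pass the threshold and *Cbs* had no adjusted p. Of all genes tested, 15.7% were called higher and 12.4% lower. Of the 34 members with a mean of at least 100 normalised counts, 21 were higher and 2 lower, beside 21.3% and 16.2% of genes at that level. The median log2 fold change was 0.28 over the members and -0.0008 over all genes. With a fold change of at least 1.5, 5 members were higher (*Ddit3*, *Nupr1*, *Ppp1r15a*, *Chac1* and *Ddit4*), beside 2.52% of all genes higher and 3.08% lower. For the cisplatin comparison the count of 23 members called, which was 26 with edgeR, was 15 without cisplatin replicate 1. With libraries scaled to their total counts, 1824 of 4200 called genes were higher, against 2355 of 4203 here, and 18 members were higher and 2 lower. Both comparisons share the control libraries, so their values are given side by side.

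**Figure D2:**
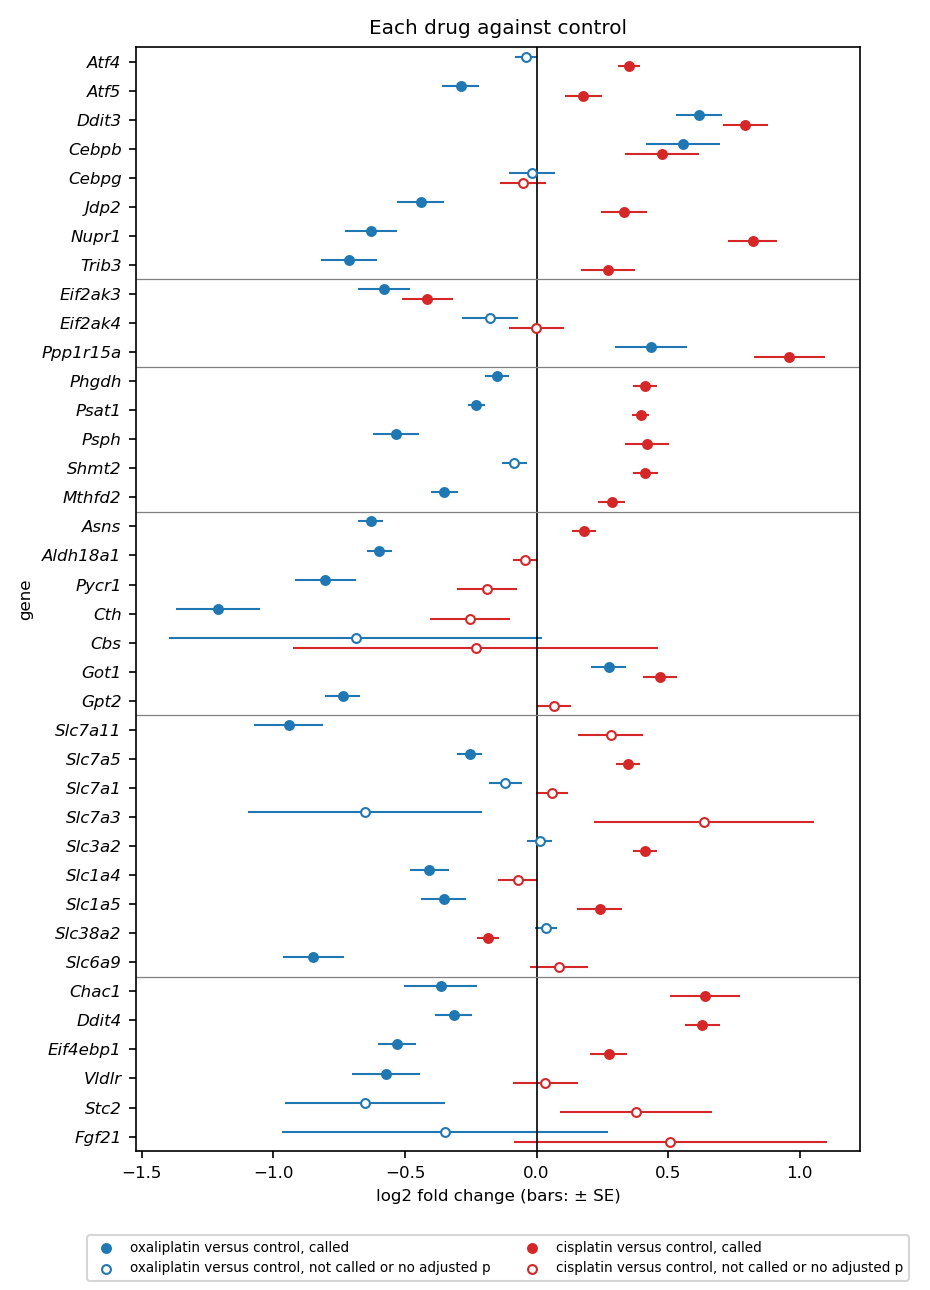
Log2 fold change (x axis) of each member (y axis) against control, oxaliplatin in blue and cisplatin in red. Points are DESeq2 estimates, bars ± SE, filled points passed an adjusted p of 0.05, and grey lines part the roles. All 5 serine and one-carbon genes lie below 0 after oxaliplatin and above 0 after cisplatin.

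Between the drugs at the same dose and time, the 1 pair of compounds that could be compared, 30 members were lower and 1, *Slc38a2*, was higher after oxaliplatin than after cisplatin. Another 5 did not pass the threshold and 2 had no adjusted p. Over all genes tested 8.62% were higher and 11.3% lower. Of the 34 members with a mean of at least 100 normalised counts, 1 was higher and 28 were lower, beside 11.8% and 15.5% of genes at that level. The median log2 fold change was -0.60 over the members and -0.0033 over all genes. With a fold change of at least 1.5, 20 members were lower, beside 1.41% of all genes higher and 1.38% lower. With scaling to total counts, 1622 of 2986 called genes were higher, against 1289 of 2977 here, and 1 member was higher and 28 were lower.

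**Figure D3:**
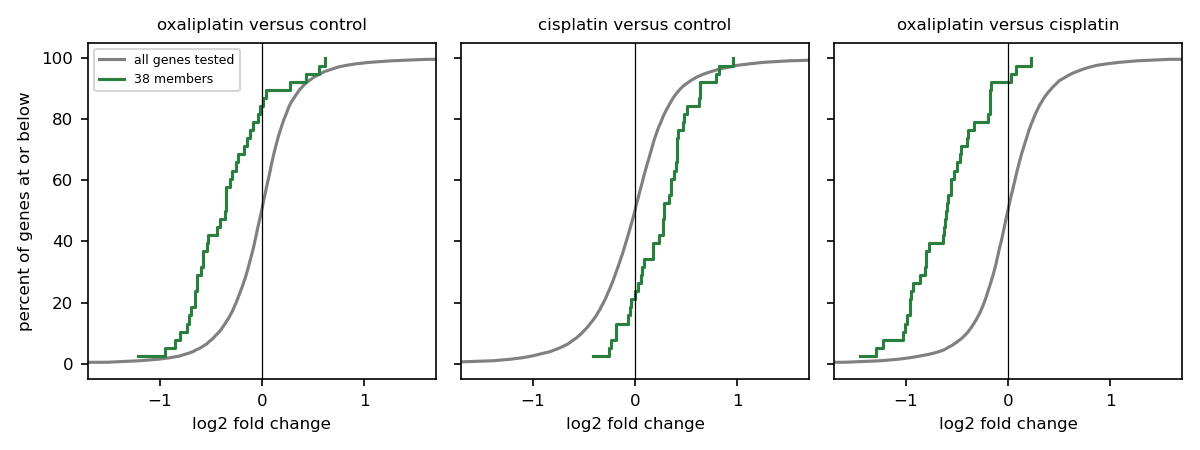
Percent of genes (y axis) with a log2 fold change at or below the value on the x axis, for the members (green steps) and for all genes tested (grey line), in the 3 comparisons. Over most of its length the member curve lies to the left of the grey line after oxaliplatin and between the drugs, and to the right after cisplatin. The curves cross near an end, where the largest changes of all genes go beyond those of the members.

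Among the transcription factors and partners, *Atf4* mRNA rose after cisplatin and did not pass the threshold after oxaliplatin, while *Ddit3* rose after both drugs. *Atf4* (ENSMUSG00000042406, chr15:80255184-80257541, plus strand) had normalised counts of 8049 and 7691 in control, 7564 and 7744 after oxaliplatin and 10157 and 9905 after cisplatin. The oxaliplatin libraries overlapped the control libraries, and both cisplatin libraries lay above all others. Its log2 fold change was -0.04 ± 0.043 (adjusted p = 0.562, DESeq2) after oxaliplatin, with a 95% interval of -0.12 to 0.043, and 0.35 ± 0.042 (adjusted p = 5.9e-15, DESeq2) after cisplatin. Between the drugs it was -0.39 ± 0.042 (adjusted p = 2.67e-18, DESeq2). *Ddit3* (CHOP, a C/EBP family member that ATF4 induces and that promotes death under lasting stress, ENSMUSG00000025408, chr10:127290774-127296288, plus strand) had normalised counts of 758 and 749.8 in control, 1146 and 1167 after oxaliplatin and 1307 and 1307 after cisplatin. All 4 treated libraries lay above control. The log2 fold change of *Ddit3* was 0.62 ± 0.086 (adjusted p = 3.25e-11, DESeq2) after oxaliplatin and 0.79 ± 0.086 (adjusted p = 1.39e-18, DESeq2) after cisplatin, and the difference between the drugs did not pass the threshold, at -0.18 ± 0.083 (adjusted p = 0.104, DESeq2) with a 95% interval of -0.34 to -0.015. By edgeR's quasi-likelihood test that difference had an adjusted p of 0.0257. *Ddit3* shares 68 exonic bases with *Mars* on the opposite strand, and whether counting used strand is not stated.

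*Nupr1*, *Trib3* and *Jdp2* moved in opposite directions after the 2 drugs. *Nupr1* (a stress-induced chromatin protein, ENSMUSG00000030717, chr7:126623249-126630861, minus strand) had normalised counts of 836 and 842 in control, 525 and 561 after oxaliplatin and 1527 and 1439 after cisplatin. The 3 groups did not overlap, with oxaliplatin lowest and cisplatin highest. The log2 fold change of *Nupr1* was -0.63 ± 0.099 (adjusted p = 4.95e-09, DESeq2) after oxaliplatin and 0.82 ± 0.092 (adjusted p = 4.52e-17, DESeq2) after cisplatin, and the difference between the drugs, -1.45 ± 0.096 (adjusted p = 7.46e-49, DESeq2), was the largest called among the 38 members. *Trib3*, a pseudokinase that ATF4 induces and that feeds back on it, had normalised counts of 898 and 809.9 in control, 537 and 504 after oxaliplatin and 1037 and 1025 after cisplatin. Both oxaliplatin libraries were below control and both cisplatin libraries above it. The log2 fold change of *Trib3* was -0.71 ± 0.11 (adjusted p = 9.48e-10, DESeq2) after oxaliplatin and 0.27 ± 0.1 (adjusted p = 0.0284, DESeq2) after cisplatin. The cisplatin call of *Trib3* was lost without any 1 of the 6 libraries, with adjusted p of 0.0578 without control replicate 1, 0.352 without control replicate 2, 0.0877 and 0.0847 without oxaliplatin replicates 1 and 2, and 0.254 and 0.223 without cisplatin replicates 1 and 2. It was also lost with total-count scaling (0.0795) and a replicate block (0.106). *Jdp2*, a bZIP repressor of AP-1 sites that also binds ATF-type partners, had normalised counts of 1019 and 982 in control, 744 and 731 after oxaliplatin and 1264 and 1256 after cisplatin. Its groups did not overlap either, and its log2 fold changes were -0.44 ± 0.09 (adjusted p = 1.3e-05, DESeq2) and 0.33 ± 0.087 (adjusted p = 0.000815, DESeq2). The cisplatin call of *Jdp2* was lost without control replicate 2 (adjusted p = 0.0658) or without cisplatin replicate 1 or 2 (0.0733 and 0.0665).

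Of the other 3 factors, *Atf5* also moved in opposite directions by the main test, *Cebpb* rose after both drugs and *Cebpg* was not called. *Atf5*, a relative of ATF4 that is likewise controlled in translation, had normalised counts of 2230.0 and 2026 in control, 1731 and 1752 after oxaliplatin and 2420.4 and 2391 after cisplatin. It was lower after oxaliplatin, at -0.29 ± 0.071 (adjusted p = 0.000494, DESeq2), and slightly higher after cisplatin, at 0.18 ± 0.07 (adjusted p = 0.0393, DESeq2). The oxaliplatin call of *Atf5* was lost without control replicate 1 (adjusted p = 0.0798) or oxaliplatin replicate 1 (0.0545). When single libraries were left out, the cisplatin call of *Atf5* was lost in all cases but that of control replicate 1. Its adjusted p was 0.433 without control replicate 2, where the log2 fold change was 0.11, and 0.112, 0.11, 0.272 and 0.222 without oxaliplatin replicates 1 and 2 and cisplatin replicates 1 and 2. The same *Atf5* call was lost when low counts were not filtered (0.0557), with total-count scaling (0.153), a replicate block (0.121) and a fit to the 4 libraries compared (0.0674), and was kept under the other 4 alternatives. *Cebpb*, a C/EBP partner of ATF4, had normalised counts of 399 and 353 in control, 565 and 539 after oxaliplatin and 559.8 and 484 after cisplatin. All treated libraries were above control, the log2 fold changes were 0.56 ± 0.14 (adjusted p = 0.000631, DESeq2) and 0.48 ± 0.14 (adjusted p = 0.00368, DESeq2), and the drugs' libraries overlapped. Between the drugs *Cebpb* differed by 0.081 ± 0.14 (adjusted p = 0.735, DESeq2), with a 95% interval of -0.19 to 0.35, and the sign turned to -0.02 without cisplatin replicate 2. Its oxaliplatin call was lost without control replicate 2 (adjusted p = 0.0658) or oxaliplatin replicate 1 (0.0745), and its cisplatin call without control replicate 2 (0.134) or cisplatin replicate 1 (0.2). *Cebpb* shares 312 exonic bases with *Tmem189* on the opposite strand. *Atf5* shares 82 with *Nup62*, also on the opposite strand, which had a mean of 1942 counts. *Cebpg*, another C/EBP partner, was not called in any comparison and had log2 fold changes of -0.019 ± 0.087, -0.05 ± 0.088 and 0.032 ± 0.087.

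**Figure D4:**
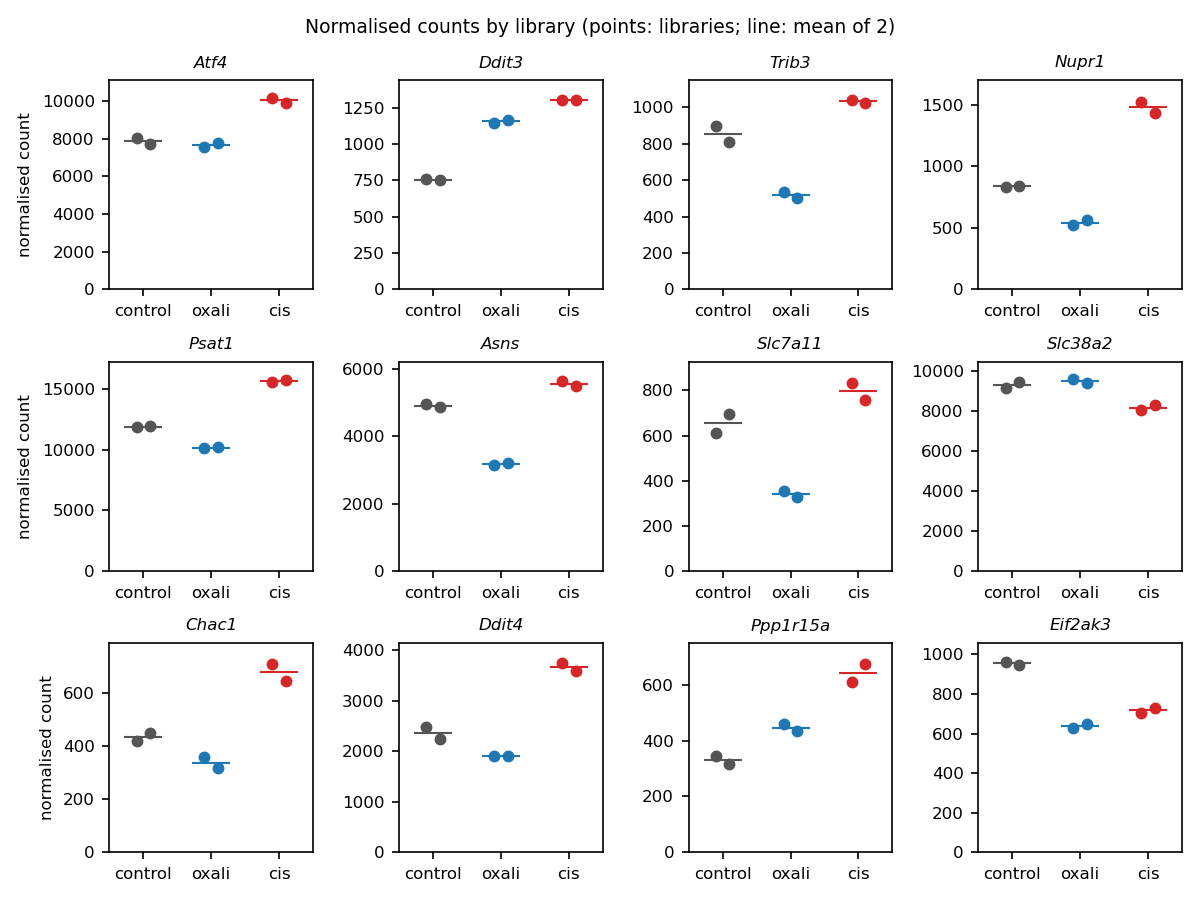
Normalised counts (y axis, from 0) of 12 members in the control, oxaliplatin and cisplatin libraries. Points are single libraries and lines the mean of 2. *Trib3*, *Nupr1*, *Asns* and *Slc7a11* are lowest after oxaliplatin, *Ddit3* and *Ppp1r15a* are above control after both drugs, and *Eif2ak3* is below control after both.

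Of the 3 members that are eIF2α kinases or a phosphatase subunit, *Ppp1r15a* rose and *Eif2ak3* fell after each drug by the main test. Some of these calls were lost under alternatives. *Ppp1r15a* (GADD34, the inducible phosphatase subunit that removes the phosphate from eIF2α, ENSMUSG00000040435, chr7:45522916-45526268, minus strand) had normalised counts of 344 and 316 in control, 458 and 434 after oxaliplatin and 609 and 675 after cisplatin. The groups did not overlap, with cisplatin highest. The log2 fold change of *Ppp1r15a* was 0.44 ± 0.14 (adjusted p = 0.00855, DESeq2) after oxaliplatin and 0.96 ± 0.13 (adjusted p = 2.8e-11, DESeq2) after cisplatin, and between the drugs -0.53 ± 0.13 (adjusted p = 0.000581, DESeq2). The oxaliplatin call of *Ppp1r15a* was lost without control replicate 2 (adjusted p = 0.172), oxaliplatin replicate 1 (0.211) or 2 (0.104), or cisplatin replicate 2 (0.0522), and with a replicate block (0.0673). The call between the drugs was lost without oxaliplatin replicate 2 (0.0792) or cisplatin replicate 2 (0.12). *Eif2ak3* (PERK, the eIF2α kinase of the endoplasmic reticulum) had normalised counts of 963 and 949 in control, 630.4 and 649 after oxaliplatin and 703 and 732 after cisplatin. All 4 treated libraries were below control, with log2 fold changes of -0.58 ± 0.099 (adjusted p = 1.12e-07, DESeq2) and -0.41 ± 0.099 (adjusted p = 0.000204, DESeq2). The cisplatin call of *Eif2ak3* was lost without cisplatin replicate 1 (adjusted p = 0.0548), and the difference between the drugs, -0.17 ± 0.1 (adjusted p = 0.241, DESeq2), had a 95% interval of -0.36 to 0.032. *Eif2ak4* (GCN2, the kinase that senses uncharged tRNA) was not called in any comparison, with log2 fold changes of -0.18 ± 0.11 after oxaliplatin, -0.0012 ± 0.11 after cisplatin and -0.18 ± 0.11 between the drugs (95% interval -0.38 to 0.032).

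The serine and one-carbon members rose together after cisplatin, 5 of 5, and 4 of 5 fell after oxaliplatin. All 5 were lower after oxaliplatin than after cisplatin. Of genes with a mean of at least 100 normalised counts, 21.3% were higher after cisplatin, 13% lower after oxaliplatin and 15.5% lower between the drugs. Genes outside the list were mixed. Of 11 other serine, one-carbon and proline genes tested, 4 rose and 3 fell after cisplatin, and 2 rose and 2 fell after oxaliplatin. Of all genes tested, 15.7% were higher and 12.4% lower after cisplatin, and 10.7% and 9.5% after oxaliplatin. *Phgdh*, the first enzyme of serine synthesis from glycolysis, had normalised counts of 10905 and 10046 in control, 9453 and 9426 after oxaliplatin and 14125 and 13738 after cisplatin. *Psat1*, the aminotransferase of the second step (ENSMUSG00000024640, chr19:15904678-15947337, minus strand), had normalised counts of 11818 and 11949.9 in control, 10089.6 and 10196 after oxaliplatin and 15588 and 15693 after cisplatin. *Psph*, the phosphatase of the last step, had normalised counts of 1105 and 1176 in control, 788 and 788 after oxaliplatin and 1545 and 1510.3 after cisplatin. In each of these 3 genes the groups did not overlap, with oxaliplatin lowest and cisplatin highest. *Shmt2*, which moves a carbon from serine to folate in mitochondria, had normalised counts of 5409.5 and 5095 in control, 4938 and 4969.5 after oxaliplatin and 6889.7 and 7096 after cisplatin, and *Mthfd2*, the next mitochondrial folate enzyme, had normalised counts of 3523 and 3546 in control, 2794 and 2751 after oxaliplatin and 4363 and 4252 after cisplatin. Their order of groups was the same.

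For *Psat1* the log2 fold change was -0.23 ± 0.034 (adjusted p = 3.31e-10, DESeq2) after oxaliplatin and 0.40 ± 0.033 (adjusted p = 7.46e-31, DESeq2) after cisplatin. Between the drugs it was -0.62 ± 0.033 (adjusted p = 2.85e-75, DESeq2), the smallest adjusted p of any member in this comparison. *Psph* differed by -0.53 ± 0.087 (adjusted p = 1.93e-08, DESeq2) after oxaliplatin and 0.42 ± 0.083 (adjusted p = 4.89e-06, DESeq2) after cisplatin, but it shares 452 exonic bases with the far more abundant *Cct6a* on the opposite strand. For *Mthfd2* the changes were -0.35 ± 0.052 (adjusted p = 5.27e-10, DESeq2) and 0.29 ± 0.051 (adjusted p = 2.81e-07, DESeq2). *Phgdh* differed by -0.15 ± 0.047 (adjusted p = 0.00788, DESeq2) after oxaliplatin and by 0.41 ± 0.046 (adjusted p = 4.93e-17, DESeq2) after cisplatin. The oxaliplatin call of *Phgdh* was lost without control replicate 1, where the log2 fold change was -0.088 (adjusted p = 0.215), or without oxaliplatin replicate 1 (0.107) or 2 (0.122). *Shmt2* did not pass the threshold after oxaliplatin, at -0.084 ± 0.049 (adjusted p = 0.216, DESeq2) with a 95% interval of -0.18 to 0.011, and rose by 0.41 ± 0.048 (adjusted p = 5.75e-16, DESeq2) after cisplatin.

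Of the genes of other amino acid synthesis, 5 of 7 fell and 1 rose after oxaliplatin, and 2 rose after cisplatin. Beside the 13% of genes with a mean of at least 100 that were lower and 14.8% that were higher after oxaliplatin, and 21.3% higher after cisplatin, the counts of genes that rose were close to the background. *Asns* (asparagine synthetase, a classical ATF4 target, ENSMUSG00000029752, chr6:7675169-7693254, minus strand) had normalised counts of 4943 and 4866 in control, 3131 and 3204 after oxaliplatin and 5628 and 5482 after cisplatin. The groups did not overlap. Its log2 fold change was -0.63 ± 0.048 (adjusted p = 1.84e-36, DESeq2) after oxaliplatin, the smallest adjusted p of any member in that comparison, and 0.18 ± 0.047 (adjusted p = 0.000809, DESeq2) after cisplatin. The cisplatin call of *Asns* was lost without control replicate 2 (adjusted p = 0.0512) or cisplatin replicate 1 (0.0984). *Cth* (cystathionine gamma-lyase, which makes cysteine, ENSMUSG00000028179, chr3:157894248-157925077, minus strand) had normalised counts of 454 and 485 in control, 199 and 207 after oxaliplatin and 424 and 363 after cisplatin. Both oxaliplatin libraries were far below the rest, at -1.21 ± 0.16 (adjusted p = 1.2e-12, DESeq2), the largest fall of any member against control. After cisplatin *Cth* differed by -0.25 ± 0.15 (adjusted p = 0.203, DESeq2), which DESeq2 did not call and edgeR did (adjusted p = 0.0333).

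Proline synthesis followed the same pattern as *Cth*. *Aldh18a1*, which begins proline synthesis from glutamate, had normalised counts of 6735 and 6573 in control, 4480.3 and 4310.4 after oxaliplatin and 6331 and 6586 after cisplatin. *Pycr1*, which completes it, had normalised counts of 809 and 775 in control, 478 and 429.8 after oxaliplatin and 719 and 671 after cisplatin. Both genes were lower in the oxaliplatin libraries than in all others, with log2 fold changes of -0.60 ± 0.047 (adjusted p = 4.54e-34, DESeq2) and -0.80 ± 0.12 (adjusted p = 2.04e-10, DESeq2) against control. Neither was called after cisplatin, with 95% intervals of -0.13 to 0.048 for *Aldh18a1* and -0.41 to 0.033 for *Pycr1*, the latter called by edgeR (adjusted p = 0.0429).

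The aminotransferases of the list went different ways. *Gpt2*, the mitochondrial alanine aminotransferase, had normalised counts of 2277 and 2296 in control, 1398 and 1346 after oxaliplatin and 2366 and 2423 after cisplatin. It fell after oxaliplatin by 0.74 on the log2 scale ± 0.066 (adjusted p = 1.84e-26, DESeq2) and was not called after cisplatin, with a 95% interval of -0.059 to 0.19. *Got1*, the cytosolic aspartate aminotransferase, had normalised counts of 2005 and 1851 in control, 2306 and 2356 after oxaliplatin and 2659 and 2678 after cisplatin. All treated libraries were above control, with log2 fold changes of 0.27 ± 0.066 (adjusted p = 0.000359, DESeq2) and 0.47 ± 0.066 (adjusted p = 3.69e-11, DESeq2). The oxaliplatin call of *Got1* was lost without control replicate 2 (adjusted p = 0.0581) or oxaliplatin replicate 2 (0.0638). Between the drugs *Got1* was called at -0.20 ± 0.065 (adjusted p = 0.0149, DESeq2), a call lost without oxaliplatin replicate 1 (0.269) or 2 (0.151) or cisplatin replicate 1 (0.189) or 2 (0.203). That call was also lost with total-count scaling (0.0521), a replicate block (0.0906) and the crossed block (0.106). *Cbs*, which precedes *Cth* in making cysteine from homocysteine, had the lowest level of all members, with a mean of 17 normalised counts over the 6 libraries, and no adjusted p.

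Among the transporters 5 of 9 fell after oxaliplatin, and 3 rose and 1 fell after cisplatin, while 8 were lower and 1 higher after oxaliplatin than after cisplatin. Of genes with a mean of at least 100, 13% were lower after oxaliplatin, 21.3% higher and 16.2% lower after cisplatin, and 15.5% lower and 11.8% higher between the drugs, so the cisplatin counts were not far from the background. Among 13 other amino acid transporters tested, 7.69% rose and 15.4% fell after oxaliplatin, beside 10.7% and 9.5% of all genes tested. After cisplatin 15.4% of them rose and 7.69% fell, beside 15.7% and 12.4%. Between the drugs 7.69% were higher and 23.1% lower after oxaliplatin, beside 8.62% and 11.3%. *Slc7a11* (xCT, which imports cystine in exchange for glutamate, ENSMUSG00000027737, chr3:49892526-50443614, minus strand) had normalised counts of 612 and 698 in control, 353 and 329 after oxaliplatin and 834 and 758 after cisplatin. The groups did not overlap, with oxaliplatin lowest. Its log2 fold change was -0.94 ± 0.13 (adjusted p = 2.28e-11, DESeq2) after oxaliplatin. After cisplatin the difference of 0.28 ± 0.12 (adjusted p = 0.0678, DESeq2) did not pass the threshold, though it did by edgeR (adjusted p = 0.0178). Between the drugs it was -1.22 ± 0.13 (adjusted p = 3.5e-19, DESeq2). *Slc3a2*, the heavy chain (CD98) shared by xCT and the leucine carrier, had normalised counts of 4754 and 4556 in control, 4730.1 and 4653 after oxaliplatin and 6173 and 6206 after cisplatin. The control and oxaliplatin libraries overlapped, with a 95% interval of -0.08 to 0.10, and *Slc3a2* rose by 0.41 ± 0.046 (adjusted p = 3.19e-17, DESeq2) after cisplatin. *Slc7a5* (LAT1, the leucine carrier) had normalised counts of 5615 and 5424 in control, 4579.7 and 4682 after oxaliplatin and 6875 and 7173 after cisplatin. Its groups were in the order oxaliplatin, control, cisplatin without overlap, with log2 fold changes of -0.25 ± 0.048 (adjusted p = 1.8e-06, DESeq2) and 0.35 ± 0.047 (adjusted p = 4.05e-12, DESeq2).

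*Slc38a2* was the 1 member called higher after oxaliplatin than after cisplatin. This carrier (SNAT2, which takes up small neutral amino acids and rises in amino acid shortage, ENSMUSG00000022462, chr15:96687392-96699730, minus strand) had normalised counts of 9144 and 9453 in control, 9634 and 9436 after oxaliplatin and 8051 and 8314 after cisplatin. Both cisplatin libraries lay below the other 4, which overlapped each other. The log2 fold change of *Slc38a2* was -0.18 ± 0.041 (adjusted p = 5.64e-05, DESeq2) after cisplatin and 0.036 ± 0.041 (adjusted p = 0.588, DESeq2) after oxaliplatin. Between the drugs it was 0.22 ± 0.041 (adjusted p = 1.27e-06, DESeq2).

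The glycine, serine and glutamine carriers *Slc6a9*, *Slc1a4* and *Slc1a5* were lower after oxaliplatin. *Slc6a9* (GlyT1, a glycine carrier) had normalised counts of 849 and 748 in control, 446 and 441 after oxaliplatin and 840.1 and 852 after cisplatin. It fell by 0.85 on the log2 scale ± 0.11 (adjusted p = 7.42e-12, DESeq2) after oxaliplatin, and after cisplatin the libraries overlapped control, with a 95% interval of -0.13 to 0.30. *Slc6a9* shares 1429 exonic bases with *Ccdc24* on the opposite strand, which had a mean of only 28.2 counts. *Slc1a4* (ASCT1, a carrier of alanine, serine and cysteine) had normalised counts of 1574 and 1549 in control, 1186 and 1169 after oxaliplatin and 1501 and 1470.4 after cisplatin. It fell by 0.41 on the log2 scale ± 0.075 (adjusted p = 1.03e-06, DESeq2) after oxaliplatin and was not called after cisplatin, with a 95% interval of -0.22 to 0.073. *Slc1a5* (ASCT2, a glutamine carrier) had normalised counts of 1845 and 1654 in control, 1436 and 1302 after oxaliplatin and 2027 and 2103 after cisplatin. Its log2 fold changes were -0.35 ± 0.086 (adjusted p = 0.000382, DESeq2) and 0.24 ± 0.085 (adjusted p = 0.0181, DESeq2), and both calls were lost under some alternatives. The oxaliplatin call of *Slc1a5* was lost without control replicate 1 (adjusted p = 0.0634) or oxaliplatin replicate 2 (0.0778), and the cisplatin call without control replicate 2 (0.305) or cisplatin replicate 1 (0.104) or 2 (0.227), and also with total-count scaling (0.0661) or a replicate block (0.0541).

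The cationic amino acid carriers changed less or were scarce. *Slc7a1* (CAT1, an arginine and lysine carrier) had normalised counts of 3223 and 3314 in control, 3091 and 2932 after oxaliplatin and 3281 and 3527 after cisplatin. The oxaliplatin libraries were the lowest, and the cisplatin libraries overlapped control. *Slc7a1* was called only between the drugs, at -0.18 ± 0.062 (adjusted p = 0.0211, DESeq2), and that call was lost without oxaliplatin replicate 1 (adjusted p = 0.0947) or 2 (0.346) or cisplatin replicate 2 (0.382). It was lost too with total-count scaling (0.0746), a replicate block (0.0945) and the crossed block (0.097). *Slc7a3* (CAT3) had a mean of 40.8 normalised counts and was likewise called only between the drugs, at -1.29 ± 0.43 (adjusted p = 0.0155, DESeq2).

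Of the growth and secreted effectors 4 of 6 fell after oxaliplatin and 3 rose after cisplatin, beside 13% and 21.3% of genes with a mean of at least 100. *Chac1* (a glutathione-degrading enzyme induced by ATF4, ENSMUSG00000027313, chr2:119351229-119354381, plus strand) had normalised counts of 420.3 and 450.3 in control, 358 and 317 after oxaliplatin and 709.8 and 647 after cisplatin. The 3 groups did not overlap. The log2 fold change of *Chac1* was 0.64 ± 0.13 (adjusted p = 1.65e-05, DESeq2) after cisplatin, -1.004 ± 0.14 (adjusted p = 6.22e-12, DESeq2) between the drugs, and -0.36 ± 0.14 (adjusted p = 0.0363, DESeq2) after oxaliplatin. The oxaliplatin call of *Chac1* was lost without any 1 of the 6 libraries, with adjusted p of 0.126 and 0.311 without control replicates 1 and 2, 0.116 and 0.418 without oxaliplatin replicates 1 and 2, and 0.126 and 0.123 without cisplatin replicates 1 and 2. It was also lost with no filter on low counts (0.0598), a replicate block (0.136) and a fit to the 4 libraries compared (0.0832).

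Inhibitors of mTORC1 output followed the same order of groups. *Ddit4* (REDD1, which restrains mTORC1) had normalised counts of 2491 and 2253 in control, 1909.7 and 1903 after oxaliplatin and 3744 and 3598 after cisplatin. *Eif4ebp1* (4E-BP1, which holds back cap-dependent translation) had normalised counts of 3429 and 3052 in control, 2223 and 2264 after oxaliplatin and 4032 and 3805 after cisplatin. For both, oxaliplatin libraries were below and cisplatin libraries above control. The log2 fold changes of *Ddit4* were -0.32 ± 0.069 (adjusted p = 6.13e-05, DESeq2) and 0.63 ± 0.067 (adjusted p = 5.47e-19, DESeq2), and those of *Eif4ebp1* -0.53 ± 0.071 (adjusted p = 3.35e-12, DESeq2) and 0.27 ± 0.07 (adjusted p = 0.000538, DESeq2). The cisplatin call of *Eif4ebp1* was lost without control replicate 2 (adjusted p = 0.0654) or cisplatin replicate 1 (0.0662).

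The last 3 effectors are a receptor and secreted proteins. *Vldlr* (a lipoprotein receptor) had normalised counts of 695 and 785 in control, 459 and 538 after oxaliplatin and 734 and 782 after cisplatin. It fell by 0.57 on the log2 scale ± 0.13 (adjusted p = 8.23e-05, DESeq2) after oxaliplatin, a call lost without oxaliplatin replicate 1 (adjusted p = 0.0513), and its cisplatin libraries overlapped control. *Stc2* (stanniocalcin 2, a secreted stress protein) had a mean of 86 normalised counts and was called only between the drugs, at -1.03 ± 0.3 (adjusted p = 0.00396, DESeq2). *Fgf21* (a hormone that ATF4 induces) was near the lower limit of these data, with normalised counts of 15.6 and 21.7 in control, 13 and 16.4 after oxaliplatin and 26.5 and 26.6 after cisplatin. It had no adjusted p after oxaliplatin or between the drugs and was not called after cisplatin, at 0.51 ± 0.59 (adjusted p = 0.568, DESeq2) with a 95% interval of -0.66 to 1.67.

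**Figure D5:**
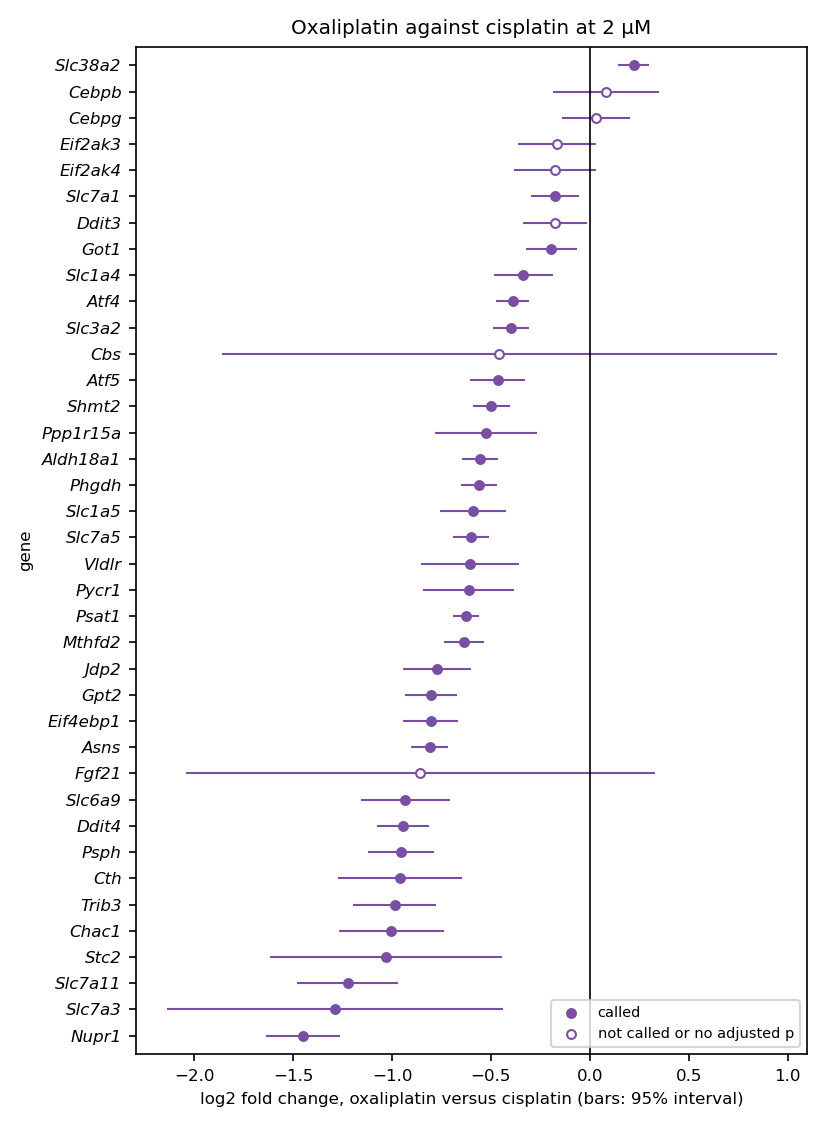
Log2 fold change of oxaliplatin against cisplatin (x axis) for each member (y axis), ordered by size, with 95% intervals as bars; filled points passed an adjusted p of 0.05. Nearly all points lie below 0, from *Nupr1* at -1.45 to *Slc38a2* at 0.22, and *Cbs*, *Fgf21* and *Slc7a3* have the widest bars.

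In a single fit the difference between the drugs is the gap between the 2 changes against control. It therefore follows from the fit that members with opposite directions lay far apart. The scarce *Slc7a3* and *Stc2*, called only between the drugs, differed by -1.29 ± 0.43 and -1.03 ± 0.3, more than the members listed next. All of the following differences, oxaliplatin minus cisplatin on the log2 scale, were called. *Chac1* and *Trib3* differed by -1.004 ± 0.14 and -0.99 ± 0.11, and *Cth* and *Psph* by -0.96 ± 0.16 and -0.95 ± 0.085. *Ddit4*, *Slc6a9* and *Asns* differed by -0.95 ± 0.068, -0.93 ± 0.11 and -0.81 ± 0.048. *Eif4ebp1*, *Gpt2* and *Jdp2* differed by -0.81 ± 0.07, -0.80 ± 0.066 and -0.77 ± 0.088. Smaller differences were those of *Mthfd2* at -0.64 ± 0.051, *Phgdh* at -0.56 ± 0.046 and *Shmt2* at -0.50 ± 0.048 among the one-carbon genes, and of *Pycr1* at -0.61 ± 0.12 and *Aldh18a1* at -0.55 ± 0.047 in proline synthesis. Among carriers *Slc7a5*, *Slc1a5*, *Slc3a2* and *Slc1a4* differed by -0.60 ± 0.047, -0.59 ± 0.085, -0.40 ± 0.046 and -0.34 ± 0.075, and *Vldlr* and *Atf5* differed by -0.61 ± 0.13 and -0.47 ± 0.071. The members not called between the drugs were *Ddit3*, *Cebpb*, *Cebpg*, *Eif2ak3* and *Eif2ak4*, which does not show that the drugs act alike on them. The lower ends of their 95% intervals ran from -0.38 for *Eif2ak4* to -0.14 for *Cebpg*, and the upper ends from -0.015 for *Ddit3* to 0.35 for *Cebpb*.

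Set in order of level per length, *Phgdh*, *Atf4* and *Psat1* were the most abundant members in control cells, at 4214, 3338 and 2794 normalised counts per kilobase of exon. They stood at the 98.3, 97.9 and 97.5 percentiles of all genes tested. After cisplatin the same 3 levels were 5604, 4254 and 3677 per kilobase, and after oxaliplatin 3797, 3246 and 2384. At the other end were *Cbs* at 2.75, *Slc7a3* at 10.1, *Stc2* at 17 and *Fgf21* at 19.6 normalised counts per kilobase in control. In control the replicate SD was 244.3 for *Phgdh* and 107.6 for *Atf4*, both smaller than the gap between them.

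A further list held 51 other genes of the pathway, of which 49 were tested. After oxaliplatin 10 rose and 7 fell, after cisplatin 18 rose and 5 fell, and between the drugs 3 were higher and 15 lower after oxaliplatin. Called higher and lower among all genes were 10.7% and 9.5%, 15.7% and 12.4%, and 8.62% and 11.3%. As shares of the 49 genes the counts were 20.4% and 14.3%, 36.7% and 10.2%, and 6.12% and 30.6%. Their median log2 fold changes were 0.0012, 0.16 and -0.13. *Aldh1l2*, a mitochondrial folate dehydrogenase, had the smallest adjusted p of these genes after oxaliplatin and between the drugs. It had normalised counts of 3449 and 3897 in control, 1786 and 1693 after oxaliplatin and 2879 and 2836 after cisplatin, with log2 fold changes of -1.08 ± 0.074 (adjusted p = 2.75e-45, DESeq2) and -0.36 ± 0.072 (adjusted p = 6.61e-06, DESeq2) and -0.72 ± 0.074 (adjusted p = 8.25e-20, DESeq2) between the drugs. *Sesn2*, a leucine sensor that ATF4 induces, had normalised counts of 549 and 554 in control, 350.0 and 327 after oxaliplatin and 666 and 630.3 after cisplatin, and fell by 0.70 on the log2 scale ± 0.13 (adjusted p = 4.38e-07, DESeq2) after oxaliplatin and was not called after cisplatin. After cisplatin *Shmt1* (the cytosolic partner of *Shmt2*), *Got2* (the mitochondrial partner of *Got1*) and *Eif2b1* (a subunit of the exchange factor for eIF2) had the smallest adjusted p, with log2 fold changes of 0.79 ± 0.094, 0.29 ± 0.04 and 0.49 ± 0.072. *Bcat1*, a branched-chain aminotransferase, differed between the drugs by -0.38 ± 0.047 (adjusted p = 7.49e-14, DESeq2). *Sesn2* differed between them by -0.94 ± 0.12 (adjusted p = 3.09e-12, DESeq2), a larger difference than that of *Aldh1l2*.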

How the data were processed

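Poly(A) RNA of TRAMP-C2 cells was sequenced as 6 libraries (2 control, 2 oxaliplatin, 2 cisplatin; groups and replicate numbers from the sample labels) prepared with a stranded mRNA kit. The values deposited are RSEM expected counts per gene, with no scaling between libraries. The submitters' processing notes name STAR 2.5.3a, RSEM 1.3.0 and GRCm38.p6, whereas the study's methods name another counting program for its in vitro RNA-seq. Neither the annotation release nor a strand setting for this table is given in the sources used here. RSEM divides reads shared by several genes, and 13 of the 38 members had values that were not whole in some library.

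Symbols, positions and exon lengths came from GENCODE M21 (GRCm38), which matched 54409 of 54446 gene identifiers. Counts were rounded, and a gene was tested if 2 or more libraries held 10 or more counts (14956 genes). DESeq2 1.42.0 (R 4.3.3) was fitted once to the 6 libraries with group as the factor, with two-sided Wald tests, Benjamini-Hochberg adjustment, a threshold of 0.05 and independent filtering at 0.1. Independent filtering left 2900, 1740 and 2900 genes without an adjusted p in the 3 comparisons (oxaliplatin against control, cisplatin against control, oxaliplatin against cisplatin). Fold changes are unshrunken, with SE. Size factors were 0.964 to 1.08. The procedure was run on simulated counts, with some genes changed 2-fold up or down and a spread fitted to these data. That setting does not show how well smaller changes, such as most of those given here, are called. edgeR 4.0.16, other scalings and filters, a replicate block and leaving out libraries were alternatives.

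The members and lists were chosen with earlier results of these data known. Values per library are given for members called in any comparison whose mean normalised count reached 100, and for *Atf4*, *Atf5*, *Ddit3*, *Trib3*, *Asns*, *Chac1* and *Fgf21*. Of other pathway genes the 3 with the smallest adjusted p per comparison are named, except for an item that is not reported here.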

Additional observations from a re-analysis of the deposited data

How the results depend on the processing

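Against the main counts of 27, 23 and 31 members called (oxaliplatin against control, cisplatin against control, oxaliplatin against cisplatin), edgeR called 28, 26 and 32, and asking for a fold change of at least 1.5 left 10, 5 and 20 members. Leaving out 1 library gave 21 to 26, 15 to 22 and 26 to 30 members, with fewer samples by construction. A replicate block gave 25, 20 and 28 members. Replicate differences correlated at 0.0715, -0.0477 and -0.191 between control and oxaliplatin, control and cisplatin, and the 2 drugs. Weak correlations cannot show whether replicate numbers pair the samples, because a small shared effect could be lost in other variation. A crossed pairing of the drugs, chosen after seeing the data, gave 27 members. The block called 1958, 2833 and 1861 genes in all against 3028, 4203 and 2977, and edgeR 4618, 6112 and 4773. The members' medians kept their sign under every alternative run. After total-count scaling they were -0.37, 0.24 and -0.57 for the members. Some differences that were not called changed sign. Against control after oxaliplatin, *Slc3a2* was at -0.0021 with total-count scaling and -0.0161 to 0.0447 with 1 library left out. After cisplatin *Slc6a9* ran from -0.0047 to 0.1773 and *Vldlr* from -0.0521 to 0.1243 with 1 library left out, and *Vldlr* was at -0.0146 with total-count scaling. Between the drugs *Cebpb* ran from -0.0202 to 0.1889 with 1 library left out. The cause of these changes was not tested. With 2 libraries per group, small differences of scarce members such as *Cbs*, *Fgf21*, *Slc7a3* and *Stc2* could not be resolved at this depth.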
